A study of Mus musculus with 12 samples.

Results

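The genes described here are 7 that mark or attract eosinophils: the eotaxin genes Ccl11 and Ccl24, the eotaxin receptor gene Ccr3, the interleukin-5 receptor gene Il5ra, the surface receptor gene Siglecf and the granule protein genes Epx and Prg2. They were chosen by name, and all 7 were found once each among the 49585 genes of the deposited table. The table comes from RNA sequencing of lungs of C57BL/6 mice, in 12 libraries that form 4 groups of 3. These groups are Has2+/- lungs with ovalbumin (libraries 7, 8 and 9), Has2+/- lungs with saline (10, 11 and 12), wild-type (WT) lungs with ovalbumin (1, 2 and 3) and WT lungs with saline (4, 5 and 6). Ovalbumin is an egg protein used as an allergen. The design text says that WT mice were sensitized to it and stimulated through the nose, and that Has2+/- mice were stimulated with it. Titles of ovalbumin samples also carry the number 24 as a time, with no unit. Has2+/- mice lack a working copy of Has2, a gene for an enzyme that makes the matrix polymer hyaluronan; the labels do not describe the allele or give the age or sex of the mice. The question the design poses is how the lung responds to the allergen and whether that response differs with Has2 dosage.

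Eosinophils are granulocytes that mature in the bone marrow under interleukin-5 and enter the airways in allergic inflammation. Eotaxins are small secreted chemokines, made mainly by epithelial cells, fibroblasts, smooth muscle and macrophages, that draw eosinophils in through the receptor CCR3 on their surface. The eosinophil's own proteins include receptors that it carries in the circulation and tissue, and granule proteins whose messages are made mainly while it matures in the marrow.

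Both eotaxins and the CCR3 ligand CCL7, which returns in the results, belong to the CC chemokines, named for a pair of adjacent cysteines near the start of the mature protein. To show how far the transcripts counted for these genes differ in sequence, the stretch around that pair is printed for each, 60 coding bases from 5′ to 3′ on the coding strand, with the codons of the adjacent cysteines in capitals. Each stretch is read from the spliced GENCODE M21 transcript and spans an intron, so its genome interval (GRCm38) is longer than the stretch.
Ccl11, chr11:82058036-82061731, plus strand: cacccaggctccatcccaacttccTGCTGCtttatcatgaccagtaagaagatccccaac
Ccl24, chr5:135572635-135572900, minus strand: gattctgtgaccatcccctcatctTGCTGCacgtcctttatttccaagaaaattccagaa
Ccl7, chr11:82045856-82046573, plus strand: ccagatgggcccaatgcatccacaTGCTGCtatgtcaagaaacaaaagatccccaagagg
All 3 genes use the same codons for the cysteine pair and differ around it. Over the whole coding sequence Ccl11 was identical to Ccl24 at 48.9% and to Ccl7 at 66.3% of aligned positions. No stretch of 50 bases in the transcripts of Ccl11, Ccl24, Ccr3, Epx or Prg2 occurred in another gene. For Il5ra and Siglecf the share of such stretches was 0.899% and 0.206%.

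The values are gene counts that the authors put on an identical distribution in all 12 libraries, and they are called normalized units below. The depth of each library is not kept, but the order in which tied genes were ranked gives back whole reads for low values. Between 20 and 50 reads, 1 read was worth 0.884 to 1.2 units, depending on the library. Spearman correlations between libraries, across genes, were 0.954 to 0.990. For 7 of the 12 libraries the closest library belonged to another group. For library 3, a WT ovalbumin library, the highest correlation within its group was 0.974, against 0.984 with library 4 of the WT saline group. For library 12, a Has2+/- saline library, these values were 0.981 and, with library 5 of the WT saline group, 0.988. Results are also given without these 2 libraries. Nothing in the labels states whether replicate libraries are from different mice, so p-values measure only the spread between these samples, which may be technical. The 6 markers of lung epithelium were expressed in every library, which fits the lung label. They summed to 157280 to 178390 units in Has2+/- ovalbumin and 178620 to 181960 in Has2+/- saline lungs, and to 147070 to 156440 in WT ovalbumin and 177560 to 178210 in WT saline lungs. The sums were thus lower in all ovalbumin libraries than in the saline libraries of the same genotype, with library 7 apart from libraries 8 and 9, while 0 of the 6 markers rose and 0 fell by the limma test. Most of each sum came from Sftpc and Scgb1a1. Both took values from 53835 to 79206 units, and the identical distribution fixes which values can occur. The sums thus mainly follow the ranks of these genes. Epcam had higher means with ovalbumin in both genotypes, and Foxj1 in Has2+/- but not in WT lungs. The part of the lower sums in the ovalbumin results was not tested. Has2 itself averaged 7.89 ± 2.95 and 7.75 ± 0.38 units in Has2+/- lungs with ovalbumin and saline, against 6.72 ± 3.38 and 5.72 ± 1.17 units in WT lungs (SD, n = 3 each). The Has2 level was thus not lower in the libraries labelled Has2+/-, and it gives no check of the genotype labels.

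Ovalbumin lungs of both genotypes held more mRNA for the eotaxin Ccl11, its receptor Ccr3 and the granule gene Prg2 than saline lungs. Ccl11 was 4.45 times higher in Has2+/- lungs and 5.29 times in WT lungs, by the ratio of group means. In bulk lung RNA, more cells of a type and more RNA per cell cannot be told apart. Ccl24, the second eotaxin, had the widest range of the 7 and did not pass the test over all genes. Il5ra and Siglecf did not pass it either, and Epx was nearly absent.

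**Figure D1:**
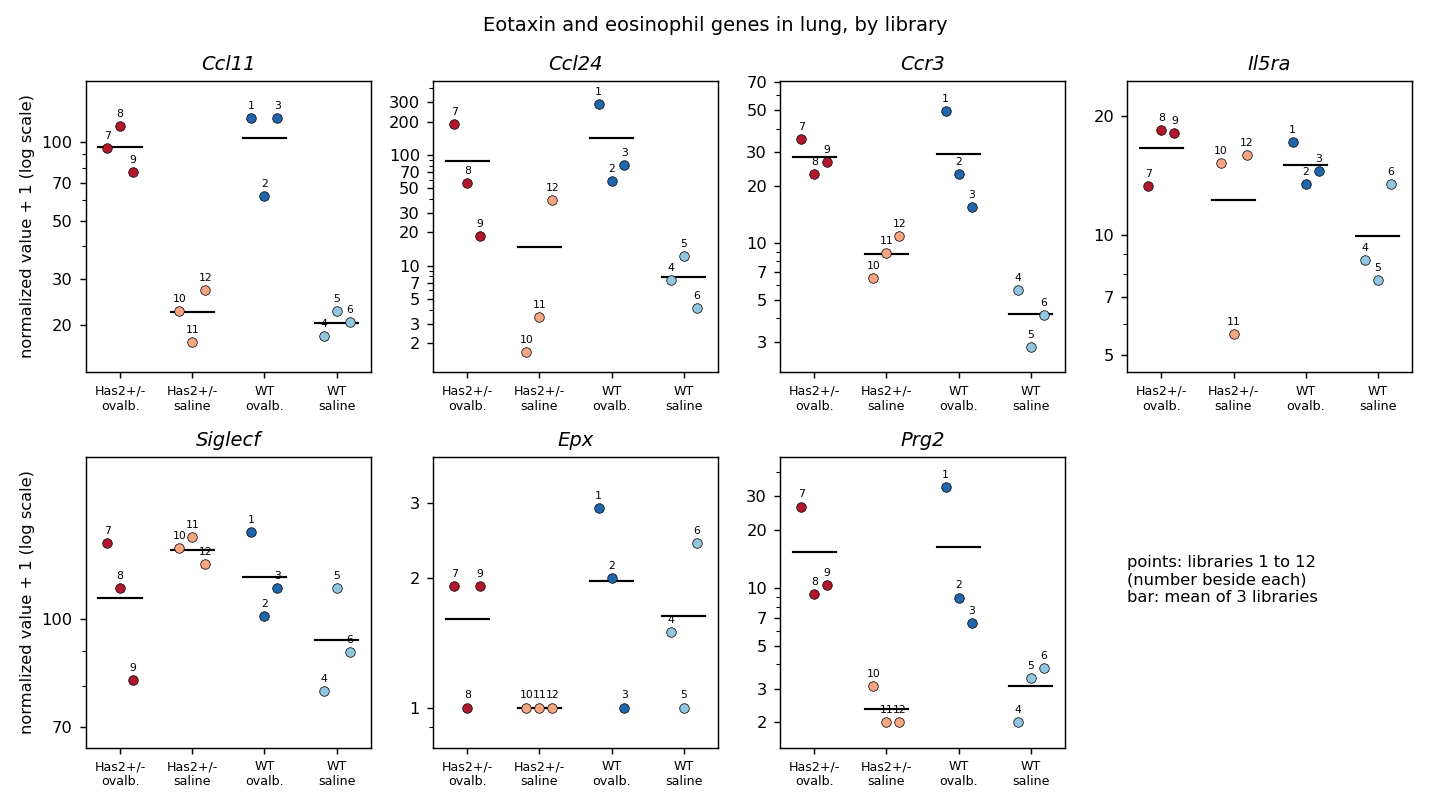
Normalized value plus 1 (log axis) of each gene in each of the 12 libraries, by group; points carry the library number and bars are means of 3 libraries. Ccl11, Ccr3 and Prg2 stand higher in all ovalbumin libraries than in all saline libraries of the same genotype, while Siglecf and Il5ra overlap and Epx lies between 0 and 1.92 units.

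Ccl11 encodes eotaxin-1 (ENSMUSG00000020676, chr11:82057823-82062955, plus strand, GRCm38). It stood at 94.1, 114.9 and 75.9 units in the Has2+/- ovalbumin libraries 7, 8 and 9, against 21.7, 16.2 and 26.3 units in the Has2+/- saline libraries 10, 11 and 12. Its WT values were 123.3, 61.3 and 123.5 units in the ovalbumin libraries 1, 2 and 3, against 17.1, 21.6 and 19.6 units in the saline libraries 4, 5 and 6. Every ovalbumin library was well above every saline library, and library 2 was the lowest of the ovalbumin libraries. Ccl11 rose by 2.11 ± 0.26 on the log2(value + 1) scale in Has2+/- lungs (SE; limma adjusted p = 0.00113) and by 2.28 ± 0.26 in WT lungs (adjusted p = 0.000118). Both calls held in all 22 alternative analyses. Without libraries 3 and 12 the changes were 2.26 and 2.11.

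Ccl24 encodes eotaxin-2 (ENSMUSG00000004814, chr5:135569937-135573049, minus strand). It stood at 190.6, 54.9 and 17.6 units in Has2+/- ovalbumin libraries 7, 8 and 9, against 0.667, 2.42 and 38.3 units in Has2+/- saline libraries 10, 11 and 12. WT lungs gave 287.3, 57.3 and 79.5 units in ovalbumin libraries 1, 2 and 3, against 6.50, 11.3 and 3.17 units in saline libraries 4, 5 and 6. The WT groups did not overlap, whereas in Has2+/- lungs saline library 12 was above ovalbumin library 9. The log2 difference was 3.27 ± 1.31 in Has2+/- lungs (SE; limma adjusted p = 0.225) and 3.93 ± 1.31 in WT lungs (adjusted p = 0.0801), with 95% intervals of 0.25 to 6.28 and 0.92 to 6.94. In WT lungs the adjusted p ranged between 0.0244 and 0.237 over the alternatives, and Ccl24 passed the threshold in 3 of them. Those were the fit of the 2 WT groups alone (adjusted p = 0.0244), the fit without library 12 (0.0289) and the fit without libraries 3 and 12 (0.0408). In the authors' deposited table the WT ovalbumin group was higher, with a signed fold (saline over ovalbumin) of -19.3 and an FDR p of 0.00317. For Has2+/- lungs the authors' deposited table gives a signed fold of -6.34 and an FDR p of 0.244.

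The eotaxins did not keep a fixed proportion to each other. The ratio of the Ccl24 to the Ccl11 value within a library was 2.03, 0.478 and 0.232 in Has2+/- ovalbumin libraries 7, 8 and 9, against 0.0308, 0.150 and 1.46 in Has2+/- saline libraries 10, 11 and 12. It was 2.33, 0.933 and 0.644 in WT ovalbumin libraries 1, 2 and 3, against 0.381, 0.521 and 0.162 in WT saline libraries 4, 5 and 6. Libraries 1, 7 and 12 had the highest ratios, so 1 saline library exceeded 4 of the ovalbumin libraries.

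Ccr3 encodes the receptor through which eotaxins act on eosinophils (ENSMUSG00000035448, chr9:124021972-124031689, plus strand). It stood at 34.2, 22.1 and 25.5 units in Has2+/- ovalbumin libraries 7, 8 and 9, against 5.50, 7.83 and 9.92 units in Has2+/- saline libraries 10, 11 and 12. The values in WT lungs were 48.3, 21.9 and 14.5 units in ovalbumin libraries 1, 2 and 3, against 4.67, 1.83 and 3.17 units in saline libraries 4, 5 and 6. Each ovalbumin library was above each saline library of either genotype. In reads, the group sums were 85 (Has2+/- ovalbumin), 26 (Has2+/- saline), 78 (WT ovalbumin) and 12 (WT saline), with exact 95% Poisson intervals of 67.9 to 105, 17.0 to 38.1, 61.7 to 97.3 and 6.2 to 21.0 that cover counting error only. Ccr3 rose by 1.70 ± 0.42 (log2, SE) in Has2+/- lungs (limma adjusted p = 0.0403) and by 2.68 ± 0.42 in WT lungs (adjusted p = 0.000773). The WT call held in all 22 alternatives. The Has2+/- call was lost in 12 of them: without library 2, 6, 7, 8, 9, 10, 11 or 12, without libraries 1 and 7, at a pseudocount of 0.1, with no filter and with neither the trend nor the robust option, with adjusted p between 0.0172 and 0.181 over all alternatives.

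Il5ra encodes the ligand-binding chain of the interleukin-5 receptor (ENSMUSG00000005364, chr6:106710357-106749037, minus strand), which lets eosinophils and their precursors respond to interleukin-5. It stood at 12.3, 17.4 and 17.1 units in Has2+/- ovalbumin libraries 7, 8 and 9, against 14.2, 4.67 and 14.9 units in Has2+/- saline libraries 10, 11 and 12. WT lungs held 16.2, 12.5 and 13.5 units in ovalbumin libraries 1, 2 and 3, against 7.67, 6.75 and 12.5 units in saline libraries 4, 5 and 6. The groups overlapped in Has2+/- lungs, and in WT lungs the highest saline value equalled the lowest ovalbumin value. The log2 difference was 0.57 ± 0.39 in Has2+/- lungs (SE; limma adjusted p = 0.457) with a 95% interval of -0.26 to 1.40. It was 0.63 ± 0.39 in WT lungs (adjusted p = 0.301) with an interval of -0.20 to 1.46. The upper ends of both intervals lie below the Ccr3 changes of the same genotype, but the difference between the genes was not tested.

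Siglecf encodes a sialic acid-binding receptor of eosinophils that alveolar macrophages also carry in mice (ENSMUSG00000039013, chr7:43351341-43359531, plus strand). It stood at 127.5, 110 and 80.8 units in Has2+/- ovalbumin libraries 7, 8 and 9, against 125.8, 130.1 and 118.9 units in Has2+/- saline libraries 10, 11 and 12. For WT lungs they were 132.5, 100 and 109.9 units in ovalbumin libraries 1, 2 and 3, against 77.8, 110 and 88.8 units in saline libraries 4, 5 and 6. Both pairs of groups overlapped, and no library fell below 77.8 units. The log2 difference was -0.26 ± 0.17 in Has2+/- lungs (SE; limma adjusted p = 0.429) and 0.31 ± 0.17 in WT lungs (adjusted p = 0.233), with 95% intervals of -0.62 to 0.10 and -0.05 to 0.67. The 8 alveolar macrophage markers summed to 1448 to 1604 units in Has2+/- ovalbumin, 1440 to 1766 in Has2+/- saline, 1294 to 1847 in WT ovalbumin and 1488 to 1681 in WT saline lungs, and none of the 8 was at 0 throughout a group. Car4 was the largest part of these sums, with group means of 593 to 753 units, and which cells made it was not tested. The sums also hide opposite moves. In WT lungs the means of Marco, Krt79, Plet1 and Atp6v0d2 were higher with ovalbumin, and those of Car4, Pparg, Fabp1 and Cidec lower. Of these 8 markers 0 rose and 0 fell in Has2+/- lungs, and 1 rose (Atp6v0d2) and 1 fell (Cidec) in WT lungs. Their part in the Siglecf level was not tested.

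The proportion of Ccr3 to Siglecf separated the treatments in both genotypes, as Ccr3 alone did. This ratio of normalized values within a library was 0.268, 0.201 and 0.316 in Has2+/- ovalbumin libraries 7, 8 and 9, against 0.0437, 0.0602 and 0.0834 in Has2+/- saline libraries 10, 11 and 12. It was 0.365, 0.219 and 0.132 in WT ovalbumin libraries 1, 2 and 3, against 0.0600, 0.0167 and 0.0357 in WT saline libraries 4, 5 and 6. The lowest ovalbumin ratio was above the highest saline ratio. Siglecf ran only from 77.8 to 132.5 units over the libraries, so this separation follows largely from Ccr3 and is no further result. The ratio was formed after the values of both genes were known and was not tested.

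Prg2 encodes major basic protein, the main protein of the eosinophil granule core (ENSMUSG00000027073, chr2:84980461-84983632, plus strand). It stood at 25.5, 8.33 and 9.33 units in Has2+/- ovalbumin libraries 7, 8 and 9, against 2.08, 1.00 and 1.00 units in Has2+/- saline libraries 10, 11 and 12. WT lungs showed 32.4, 7.92 and 5.58 units in ovalbumin libraries 1, 2 and 3, against 1.00, 2.42 and 2.83 units in saline libraries 4, 5 and 6. All ovalbumin libraries were above all saline libraries, and libraries 1 and 7 were far above the other 4. The reads behind the group sums numbered 44 (Has2+/- ovalbumin), 4 (Has2+/- saline), 41 (WT ovalbumin) and 6 (WT saline), with exact 95% Poisson intervals of 32.0 to 59.1, 1.09 to 10.2, 29.4 to 55.6 and 2.20 to 13.1.

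Prg2 rose by 2.57 ± 0.58 (log2, SE) in Has2+/- lungs (limma adjusted p = 0.0295) and by 2.08 ± 0.58 in WT lungs (adjusted p = 0.0216). The Has2+/- call was lost without library 7, 10, 11 or 12 (adjusted p = 0.158, 0.0824, 0.109 and 0.0703), at a pseudocount of 10 (0.138) and with neither the trend nor the robust option (0.104). The WT call was lost without library 1, where the change was 1.37 (adjusted p = 0.130), without library 4 (0.0892), without libraries 1 and 7 (0.0938) and under the same pair of settings (0.0986 and 0.0577). Over the alternatives the adjusted p ranged between 0.00921 and 0.158 in Has2+/- lungs and between 0.0106 and 0.130 in WT lungs.

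Epx encodes eosinophil peroxidase, the granule enzyme that most sharply marks the eosinophil lineage (ENSMUSG00000052234, chr11:87864000-87875536, minus strand). It stood at 0.917, 0 and 0.917 units in Has2+/- ovalbumin libraries 7, 8 and 9, against 0 in each of the Has2+/- saline libraries. The WT libraries had 1.92, 1.00 and 0 units in ovalbumin libraries 1, 2 and 3, against 0.500, 0 and 1.42 units in saline libraries 4, 5 and 6. These values correspond to 8 reads in all 12 libraries, with 2 in the Has2+/- ovalbumin group, 0 in the Has2+/- saline group and 3 in each WT group. The 0 reads of the Has2+/- saline group allow up to 3.69 reads by the exact interval. Epx was below the level required for testing, since no group mean reached 1 unit, and no change was detectable at this depth. With no filter the limma adjusted p was 0.512 in Has2+/- lungs and 0.791 in WT lungs.

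Counted together, 6 of the 7 genes could be tested. With ovalbumin, 3 rose and 0 fell in Has2+/- lungs, namely Ccl11, Ccr3 and Prg2. That count was 1 (Ccl11) without library 7, 10, 11 or 12, and also without the trend and robust options. Over all 19017 tested genes 2.80% were called in this comparison and 1.85% were higher and 0.952% lower. Calls over all genes also fell in the fits that left only Ccl11, from 532 in the main fit. They numbered 103 without library 7, 51 without library 10, 115 without library 11 and 355 without library 12. Without the trend and robust options there were 51. In WT lungs the same 3 genes rose and 0 fell; the background there was 16.7% called, 8.65% higher and 8.05% lower. At an unadjusted p below 0.05 the count was 4 higher in each genotype, Ccl24 being the added gene. The share of all tested genes at that threshold is not given, here or below, so counts at an unadjusted p have no background. The median log2 change of the 6 was 1.90 in Has2+/- lungs and 2.18 in WT lungs, where the medians over all tested genes were 0.00625 and -0.027. Groups did not overlap for Ccl11, Ccr3 and Prg2 in Has2+/- lungs and for Ccl11, Ccl24, Ccr3 and Prg2 in WT lungs. Such separation in the same direction was found for 13.2% of all tested genes in Has2+/- lungs and 16.2% in WT lungs. Without libraries 3 and 12, 3 genes were called in Has2+/- lungs (Ccl11, Ccr3 with an adjusted p of 0.0219 and Prg2 with 0.0362) and 4 in WT lungs, Ccl24 being the fourth. That fit called 933 of 19197 genes in Has2+/- and 3370 in WT lungs. Without libraries 1 and 7, the count was 2 in each genotype, Ccl11 and Prg2 in Has2+/- lungs and Ccl11 and Ccr3 in WT lungs. This fit called 380 of 19140 genes in Has2+/- and 2456 in WT lungs. The 2 ovalbumin comparisons use different libraries, but they were fitted with 1 shared estimate of the spread.

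**Figure D2:**
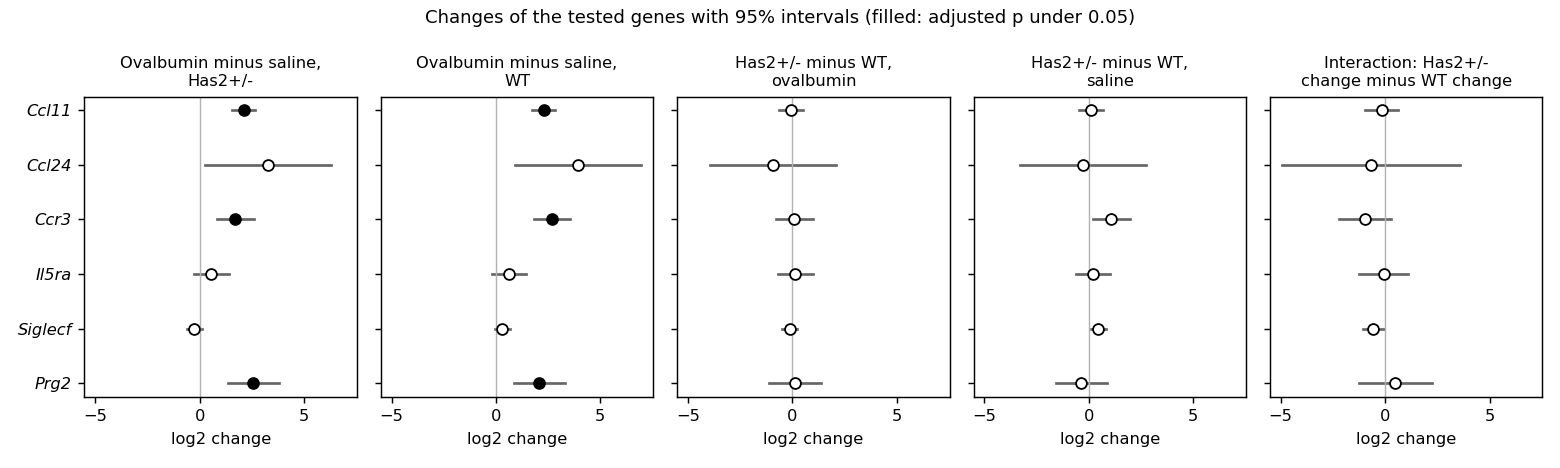
Log2 change with its 95% interval for the 6 tested genes in the 5 comparisons; filled points have a limma adjusted p under 0.05. Ccl11, Ccr3 and Prg2 are filled in both ovalbumin comparisons, no point is filled in the genotype or interaction panels, and the Ccl24 intervals are the widest.

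Between genotypes, 0 of the 6 genes were called under ovalbumin and 0 at an unadjusted p below 0.05 (limma; 0.952% of all genes called). The log2 difference Has2+/- minus WT was -0.06 for Ccl11, with a 95% interval of -0.62 to 0.50. For Ccr3 it was 0.10 with an interval of -0.78 to 0.98. For Prg2 it was 0.13 with an interval of -1.10 to 1.35, and for Ccl24 -0.92 with an interval of -3.93 to 2.09. The Ccl11 interval is the narrowest of these 4, and the Ccl24 interval leaves room for large differences either way. In the authors' deposited table all 7 genes had an FDR p of 1 in this comparison.

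Under saline, 0 of the 6 genes were called (limma; 0.0105% of all genes called). At an unadjusted p below 0.05, 2 were higher in Has2+/- lungs, a count with no share of all tested genes to set beside it. Ccr3, the eotaxin receptor gene, averaged 7.75 ± 2.21 units in Has2+/- saline and 3.22 ± 1.42 units in WT saline lungs (SD, n = 3 each), a log2 difference of 1.08 (limma adjusted p = 0.798). Siglecf averaged 125 ± 5.63 units in Has2+/- saline and 92.2 ± 16.4 units in WT saline lungs (SD, n = 3 each), a log2 difference of 0.45 (adjusted p = 0.798). Neither pair of groups overlapped, which was so for 7.04% of all tested genes in this direction. The Ccr3 difference rests on 26 reads in the Has2+/- and 12 reads in the WT group. Over the alternatives its adjusted p ranged between 0.566 and 1, and that of Siglecf between 0.421 and 1.

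The difference between the ovalbumin changes of the genotypes was tested as an interaction (change in Has2+/- less change in WT lungs), and 0 of the 6 genes were called (limma; 0.0158% of all genes called). For Ccr3 it was -0.98 ± 0.59 (log2, SE; adjusted p = 0.681). For Siglecf it was -0.57 ± 0.24, the only one with an unadjusted p below 0.05 (limma adjusted p = 0.555). For Ccl11 it was -0.17 ± 0.37, for Prg2 0.49 ± 0.82 and for Ccl24 -0.66 ± 1.86, with adjusted p of 0.927, 0.904 and 0.945. The smaller fold of Ccr3 in Has2+/- lungs was thus not shown to differ from that in WT lungs.

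The genes also differed in how libraries of 1 group ranked. In WT ovalbumin lungs library 1 was the highest for 6 of the 7 genes, all but Ccl11. In Has2+/- ovalbumin lungs library 7 was the highest for 4 (Ccl24, Ccr3, Siglecf and Prg2), and in Has2+/- saline lungs library 12 was the highest for 4 (Ccl11, Ccl24, Ccr3 and Il5ra). Ccl24 and Prg2 were highest in the same libraries of the ovalbumin groups, 1 and 7. Ccl11, by contrast, was about equal in libraries 1 and 3 although Ccr3 and Prg2 were lowest in library 3 of that group.

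**Figure D3:**
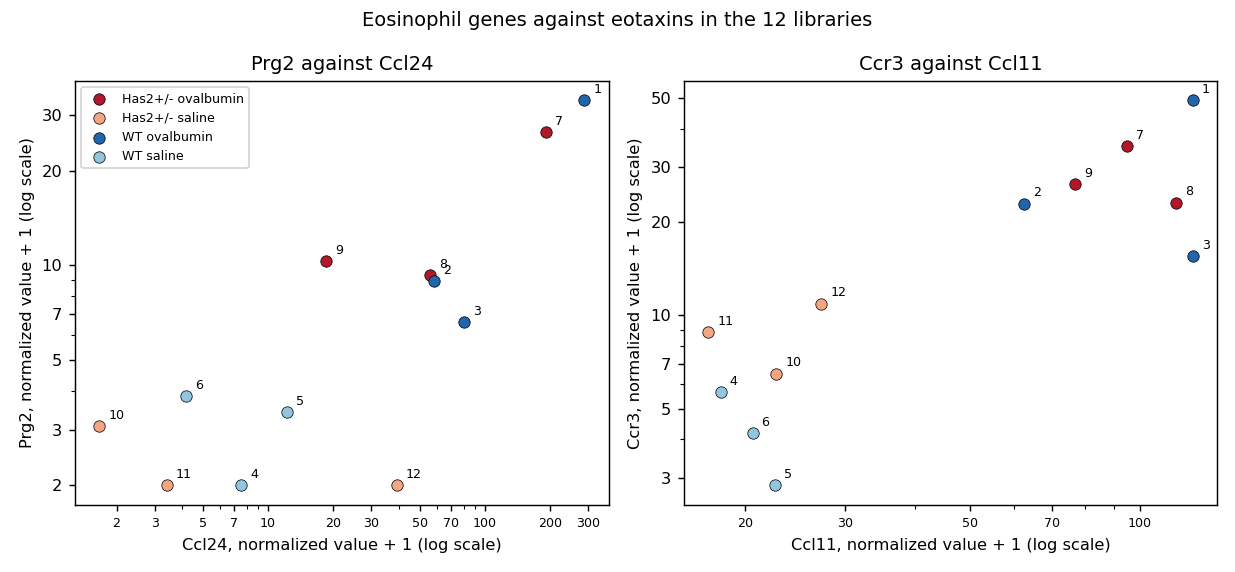
Prg2 against Ccl24 (left) and Ccr3 against Ccl11 (right) in the 12 libraries, as normalized value plus 1 on log axes, coloured by group and numbered by library. Libraries 1 and 7 lie at the upper right in the left panel; in the right panel the 6 ovalbumin and the 6 saline libraries form separate clouds.

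Divided by exon length, the levels can be set in an order. In Has2+/- ovalbumin lungs the means per kilobase of exon were 87.8 units for Ccl11, 67.7 for Ccl24, 38.02 for Siglecf, 17.2 for Prg2, 8.33 for Ccr3, 4.37 for Il5ra and 0.223 for Epx. Neighbours in this order overlapped down to Ccr3, which lay wholly above Il5ra, and Il5ra wholly above Epx. In Has2+/- saline lungs the order was Siglecf (44.8 units per kilobase), Ccl11 (19.7), Ccl24 (10.7), Il5ra (3.15), Ccr3 (2.37), Prg2 (1.62) and Epx (0). Only Siglecf and Ccl11, and Prg2 and Epx, were separated there.

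In WT ovalbumin lungs the mean levels per kilobase were 109 units for Ccl24, 94.9 for Ccl11, 40.9 for Siglecf, 18.3 for Prg2, 8.63 for Ccr3, 3.93 for Il5ra and 0.355 for Epx. Ccl11 and Siglecf, and Il5ra and Epx, were the neighbours whose libraries did not overlap. In WT saline lungs they were 33.0 for Siglecf, 17.95 for Ccl11, 5.38 for Ccl24, 2.51 for Il5ra, 2.49 for Prg2, 0.985 for Ccr3 and 0.233 for Epx, and the first 3 were separated from each other, as were Ccr3 and Epx. Siglecf thus led in saline lungs of both genotypes and the eotaxins in ovalbumin lungs, while Prg2 and Ccr3 stood above Il5ra with ovalbumin and at or below it with saline, by their means.

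The genes whose pattern over the 12 libraries lay nearest to each of these were found among 14382 genes with a mean of at least 10 units. The measure was the root mean square difference of log2(value + 1) after each gene was centred on its mean, and it describes these libraries only. Nearest to Ccl11 were Ms4a6d (0.326) and Ms4a7 (0.382), both of a family of membrane-spanning proteins, and Adra2a (0.385), an adrenergic receptor gene, where Ccl11's own spread was 1.14. Nearest to Ccr3 (spread 1.24) were Il4i1 (0.385), which encodes a secreted amino acid oxidase, Ch25h (0.426), a cholesterol hydroxylase gene, and Ccl22 (0.431), a chemokine gene.

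For Ccl24, with a spread of 2.26, the nearest genes were Rnase2a (0.751), of the ribonuclease family that includes eosinophil granule enzymes, Slc26a4 (0.832), which encodes the anion exchanger pendrin, and Saa3 (0.872), a serum amyloid gene. Rnase2a stood at 70.4, 11.4 and 26.7 units in Has2+/- ovalbumin libraries 7, 8 and 9, against 0, 0 and 10.3 units in Has2+/- saline libraries 10, 11 and 12. In WT lungs Rnase2a stood at 76.1, 25.8 and 15.2 units in ovalbumin libraries 1, 2 and 3, against 1.00, 3.58 and 1.00 units in saline libraries 4, 5 and 6. Libraries 1 and 7 were the highest and library 12 the highest of the saline libraries, as they were for Ccl24, and the ovalbumin and saline groups of a genotype did not overlap. Rnase2a was picked for its nearness to Ccl24 over these same libraries, so the likeness follows from the choice. Separation in this direction was found for 13.2% of all tested genes in Has2+/- and 16.2% in WT lungs.

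Nearest to Prg2 (spread 1.34) were Gbp11 (0.481), a guanylate-binding protein gene, Zbp1 (0.486), a nucleic acid sensor gene, and Derl3 (0.519), which acts in protein disposal from the endoplasmic reticulum. Il5ra (spread 0.511) lay nearest to Gm42641 (0.216), Dnajc25 (0.241) and Dsn1 (0.287). Siglecf had the smallest spread of the 7, 0.252, and lay nearest to Nfkbiz (0.103), Ppil3 (0.139) and Sertad3 (0.148). For Epx, with a spread of 0.564 made of a few reads, the nearest genes were H2-Q5, H2-Q6 and H2-Q4, and nothing is read from them.

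Promoter sequence is shown for Ccr3, which rose with ovalbumin, beside Il5ra, another receptor gene of eosinophils that did not pass the test. GATA factors, which bind sequences with the core letters GATA, are needed for the eosinophil lineage in mice. The 250 bases before the start of 4 of the 7 genes (Ccr3, Il5ra, Siglecf and Epx) were found among RefSeq promoters (GRCm38.p6) and searched on both strands for AGATAA and TGATAA. These motifs share their last 5 letters and cannot match at the same place on the same strand. Printed 5′ to 3′ on the strand of the gene, with AGATAA in capitals, the promoters that held a match are the following.
Ccr3, chr9:124021721-124021970, plus strand: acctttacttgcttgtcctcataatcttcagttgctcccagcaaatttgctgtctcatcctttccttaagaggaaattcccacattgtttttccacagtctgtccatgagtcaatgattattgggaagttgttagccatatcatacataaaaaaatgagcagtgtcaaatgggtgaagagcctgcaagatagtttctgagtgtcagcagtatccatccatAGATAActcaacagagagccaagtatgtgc
Il5ra, chr6:106749038-106749287, minus strand: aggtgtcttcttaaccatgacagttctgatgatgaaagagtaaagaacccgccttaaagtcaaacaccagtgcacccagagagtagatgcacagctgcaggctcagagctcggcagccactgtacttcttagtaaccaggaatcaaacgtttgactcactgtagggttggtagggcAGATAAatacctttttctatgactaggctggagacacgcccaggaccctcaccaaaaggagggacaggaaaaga
The match lay 30 to 25 bases before the start of Ccr3 and 74 to 69 bases before the start of Il5ra. Among 32851 promoters of this length 9.99% held AGATAA, 7.94% held TGATAA and 16.6% held either. The palindromic STAT motif, searched in the same way, was in 0 of the 4 and in 5.85% of all promoters. Siglecf and Epx held none of these motifs, and a match or its absence in this window says nothing about binding.

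Genes that work with these 7 were counted in 5 lists. With ovalbumin, 1.85% of all tested genes were called higher and 0.952% lower in Has2+/- lungs. In WT lungs these shares were 8.65% and 8.05%. More calls in WT than in Has2+/- lungs were thus found over all genes, and the list counts alone show no genotype difference. Of the other CCR3 ligands Ccl5, Ccl7, Ccl26 and Ccl28, 3 were tested and Ccl26 was listed at 0 in every library. Ccl7, which encodes a chemokine for monocytes and eosinophils, rose in both genotypes, and 0 of the list fell. It averaged 58.6 ± 39.95 units in Has2+/- ovalbumin and 5.14 ± 3.08 units in Has2+/- saline lungs (SD, n = 3 each), a log2 change of 3.18 (limma adjusted p = 0.0206). In WT lungs it averaged 82.3 ± 26.6 units with ovalbumin and 3.22 ± 1.99 units with saline (SD, n = 3 each), a log2 change of 4.35 (adjusted p = 0.00093). The Has2+/- call was lost in 6 alternatives, among them without library 7, 8, 10 or 11, with adjusted p of up to 0.0786; the WT call held in all 22.

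Of the interleukin-5 family and its receptor chains, 6 of 7 were tested, Il3 being listed at 0 in every library. In Has2+/- lungs 0 rose and 0 fell (limma; 3 higher at an unadjusted p below 0.05), and in WT lungs 4 rose and 0 fell. Those 4 encode receptor chains. Csf2rb, the signalling chain shared by the receptors for interleukin-5, interleukin-3 and GM-CSF, changed by 1.07 (log2; adjusted p = 0.00527). Csf2rb2, a related chain that in mice serves the interleukin-3 receptor, changed by 1.54 (adjusted p = 0.00173). Csf2ra, the GM-CSF binding chain, changed by 0.83 (adjusted p = 0.0137) and Il3ra, the interleukin-3 binding chain, by 0.55 (0.0321). In Has2+/- lungs these 4 changed in the same direction, by 0.47 (Csf2rb), 0.71 (Csf2rb2), 0.48 (Csf2ra) and 0.33 (Il3ra). None passed the test there (limma adjusted p of 0.122 or more). The Csf2ra call was lost without library 6 (adjusted p = 0.051), and the Il3ra call without library 1, 5 or 6, without libraries 1 and 7 and without the trend and robust options (up to 0.174). Csf2rb and Csf2rb2 share 12.3% and 18.9% of their 50-base stretches, mainly with each other, so their reads can be split between them. Il5, the cytokine that drives eosinophil output, averaged 4.64 ± 2.29 units in Has2+/- ovalbumin and 5.33 ± 1.01 in Has2+/- saline lungs, and 4.69 ± 2.77 in WT ovalbumin and 5.83 ± 1.88 in WT saline lungs (SD, n = 3 each). The Il5 groups overlapped, and its adjusted p was 0.811 in Has2+/- and 0.669 in WT lungs (limma).

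Of 9 other eosinophil granule and surface genes 7 were tested; Prg3 and Ear10 were below the level for testing. In Has2+/- lungs 2 rose and in WT lungs 3, and 0 fell in either. Alox15, a lipoxygenase of eosinophils and macrophages, rose in both, with a log2 change of 1.5 in Has2+/- lungs (limma adjusted p = 0.00288) and 2.35 in WT lungs (adjusted p = 2.34e-05), and both calls held in all 22 alternatives. Il1rl1, the interleukin-33 receptor gene, rose by 0.82 in Has2+/- lungs (adjusted p = 0.0227), a call lost without library 8, 10 or 11 and without the trend and robust options (up to 0.099). Its log2 change in WT lungs was 0.45 and did not pass the test (limma adjusted p = 0.0885). In WT lungs Ear2 and Ear6, ribonuclease genes, changed by 0.50 and 1.72 (adjusted p = 0.0185 and 0.0487). Ear6 averaged only 4.06 ± 2.05 units in WT ovalbumin and 0.50 ± 0.50 in WT saline lungs (SD, n = 3 each), and its call was lost in 13 of 21 alternatives, among them without library 1, 2, 4, 5, 6, 7, 10, 11 or 12 (adjusted p of up to 0.168). Ear2 shares 41.5% of its 50-base stretches with other genes, mainly Ear10, so its reads are uncertain, and its call was lost without library 2, 4 or 6 and without the trend and robust options (adjusted p of up to 0.0872).

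Of 9 transcription factor genes of the eosinophil lineage, all tested, 1 rose in Has2+/- and 5 in WT lungs, and 0 fell. Xbp1, a secretory stress factor that eosinophil precursors need in mice, changed by 0.35 in Has2+/- lungs (limma adjusted p = 0.0445) and by 0.50 in WT lungs (adjusted p = 0.00162). The Has2+/- call was lost in 15 of 22 alternatives, both other scalings and the fits without library 2, 4, 5, 6, 7, 10, 11 or 12 among them (adjusted p of up to 0.201). In WT lungs Spi1, a factor of myeloid cells, changed by 0.97 (adjusted p = 0.000895), Trib1, which encodes a pseudokinase listed with these factors, by 0.49 (0.00215) and Cebpe, a factor of late granulocyte maturation, by 3.31 (0.00263). Cebpe averaged 25.03 ± 13.9 units in WT ovalbumin and 2.14 ± 2.70 in WT saline lungs (SD, n = 3 each). In Has2+/- lungs it averaged 14.5 ± 9.63 units with ovalbumin and 2.14 ± 0.57 with saline (SD, n = 3 each). That log2 change of 2.12 did not pass the test (limma adjusted p = 0.0762), and neither did the Cebpe interaction (0.739). Trib1 and Spi1 changed by 0.31 and 0.21 in Has2+/- lungs (limma adjusted p = 0.0741 and 0.453). Gata1, a main regulator of the lineage, averaged 8.72 ± 3.55 units in Has2+/- ovalbumin and 6.69 ± 0.43 in Has2+/- saline lungs, and 8 ± 4.76 in WT ovalbumin and 3.53 ± 3.59 in WT saline lungs (SD, n = 3 each), with adjusted p of 0.829 and 0.152.

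Of 9 genes that induce eotaxins or carry that signal, 8 were tested and Il25 was listed at 0 in every library. In Has2+/- lungs 1 rose and in WT lungs 3, and 0 fell. Il33, an epithelial alarm cytokine, changed by 1.27 in both genotypes (limma adjusted p = 0.0467 in Has2+/- and 0.0136 in WT lungs). Its Has2+/- call was lost in 12 of 22 alternatives, among them without library 2, 3, 4, 5, 6, 7, 8, 10 or 11 (adjusted p of up to 0.161), and its WT call without library 1 or 6 (0.0608 and 0.0515). Il13, which drives eotaxin genes in airway cells, averaged 6.42 ± 4.88 units in WT ovalbumin and 0.667 ± 0.577 in WT saline lungs (SD, n = 3 each), a log2 change of 1.95 (adjusted p = 0.0306) that was lost in 9 of 21 alternatives, among them without library 1, 3, 4, 5 or 6 (up to 0.163). Il4ra, a receptor chain for interleukin-4 and interleukin-13, rose by 0.63 in WT lungs (adjusted p = 0.000422).

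Under ovalbumin Il4ra was lower in Has2+/- lungs, and it was the only gene of the 5 lists called between genotypes in the fit of all 12 libraries. It averaged 1608 ± 67.0 units in Has2+/- ovalbumin and 2162 ± 254 units in WT ovalbumin lungs (SD, n = 3 each), a log2 difference of -0.42 (limma adjusted p = 0.0331). That call was lost in 10 of 22 alternatives, among them without library 1, 2, 4, 6, 8, 9 or 12. Under saline and in the interaction 0 genes of the lists were called (limma). In single alternatives other genes of the lists were called between genotypes. Under ovalbumin 1 lineage factor was lower without library 7 and 2 without libraries 1 and 7, and 1 granule or surface gene was lower in each of these fits. The same fits called more genes in all: 770 of 19104 without library 7 and 462 of 19140 without libraries 1 and 7. The fit of all 12 libraries called 181 of 19017 there. Under saline 1 lineage factor was lower without libraries 1 and 7 and in the fit of the 2 saline groups alone. Those fits called 7 of 19140 and 12 of 18329 genes, against 2 of 19017 with all 12 libraries. At an unadjusted p below 0.05 there were 3 higher and 7 lower under ovalbumin, 1 higher and 3 lower under saline, and 2 higher and 5 lower in the interaction. With no share of all tested genes at this threshold to set beside them, no genotype trend is read from these counts.

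**Figure D4:**
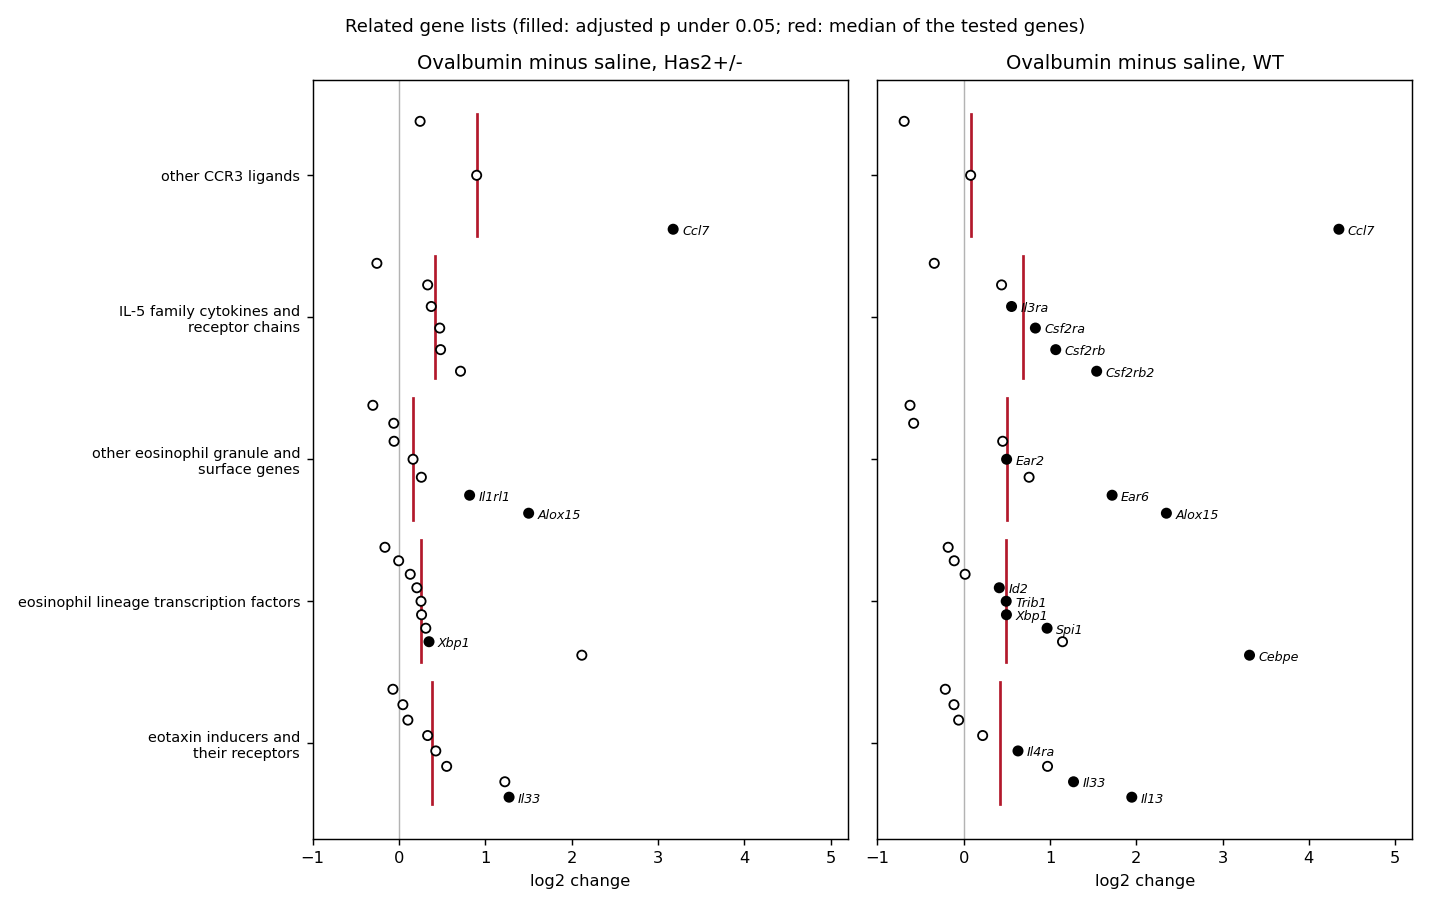
Log2 change with ovalbumin of each tested gene of the 5 lists, in Has2+/- lungs (left) and WT lungs (right); filled and named points have a limma adjusted p under 0.05 and red lines are list medians. More points are filled in WT lungs, where 16.7% of all genes were called, than in Has2+/- lungs, where 2.80% were.

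Markers of other cells moved with treatment as well. For comparison, 8.65% of all tested genes were called higher and 8.05% lower in WT lungs, and 1.85% and 0.952% in Has2+/- lungs. The 6 interstitial macrophage markers summed to 3207 to 3965 units in Has2+/- ovalbumin and 2709 to 3448 in Has2+/- saline lungs, and to 3375 to 4517 in WT ovalbumin and 2508 to 3004 in WT saline lungs. Of these 6, 2 rose in each genotype, C1qa and Mrc1, and none was at 0. Lyve1, which was called in neither genotype, was the largest part of these sums, with group means of 1514 to 1771 units. Which cells made Lyve1 was not tested. The 6 fibroblast markers summed to 18617 to 19187 units in Has2+/- ovalbumin and 17910 to 18787 in Has2+/- saline lungs, and to 17904 to 20796 in WT ovalbumin and 18264 to 19063 in WT saline lungs. In WT lungs 4 of these 6 fell and 1 rose, and in Has2+/- lungs 0 fell and 1 rose. Col1a1 averaged 13110 units in WT ovalbumin and 6519 in WT saline lungs, and 10630 and 6936 in Has2+/- lungs. The means of Dcn, Pdgfra, Tcf21, Inmt and Lum were all lower with ovalbumin in both genotypes. Inmt, for example, averaged 2986 units in WT ovalbumin and 7262 in WT saline lungs. The fibroblast sums thus hide opposite moves.

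Kit and Hdc carried nearly all of the sum of the 9 mast cell and basophil markers, which ran to 2141 to 2540 units in Has2+/- ovalbumin and 2063 to 2231 in Has2+/- saline lungs, and to 1948 to 2110 in WT ovalbumin and 1700 to 1865 in WT saline lungs. Of 8 tested, 1 fell in each genotype, the protease gene Mcpt4, and 0 rose. Mcpt4 averaged 0.667 units in Has2+/- ovalbumin and 5.03 in Has2+/- saline lungs, and 2.72 in WT ovalbumin and 12.1 in WT saline lungs, so it went the other way from the sum in WT lungs, which was higher with ovalbumin. Cpa3, a mast cell protease gene, averaged 2.22 units in WT ovalbumin and 9 in WT saline lungs and did not pass the test (limma adjusted p = 0.0636). Kit had group means of 1230 to 1610 units, against 2.22 to 9 for Cpa3, and which cells made Kit was not tested. Of the 6 neutrophil markers 0 rose and 0 fell in either genotype, with sums of 679 to 1110 units in Has2+/- ovalbumin and 747 to 2569 in Has2+/- saline lungs, and of 947 to 1593 in WT ovalbumin and 877 to 2070 in WT saline lungs. Ly6g, a neutrophil marker, was low in every group. It averaged 0 units in WT ovalbumin and 1.5 in WT saline lungs, and 0.389 and 1.64 in Has2+/- lungs. The other neutrophil markers moved both ways in WT lungs. Means of Retnlg (90.1 against 41.2 units), Csf3r and Cxcr2 were higher with ovalbumin, and those of S100a8 and S100a9 (346 against 585 units) lower. The 4 immature granulocyte markers summed to 2.75 to 7 units in Has2+/- ovalbumin and 3.67 to 7.67 in Has2+/- saline lungs, and to 2.58 to 3.58 in WT ovalbumin and 3.67 to 32.3 in WT saline lungs. The 4 T cell markers summed to 271 to 353 units in Has2+/- ovalbumin and 241 to 301 in Has2+/- saline lungs, and to 288 to 413 in WT ovalbumin and 202 to 301 in WT saline lungs. Of these 4, 0 rose in Has2+/- lungs and 2 rose in WT lungs, Cd3d and Cd8a, and 0 fell. The 5 smooth muscle markers summed to 6987 to 8055 units in Has2+/- ovalbumin and 6682 to 9368 in Has2+/- saline lungs, and to 7164 to 9043 in WT ovalbumin and 8362 to 9766 in WT saline lungs. Of these 5, 1 rose in Has2+/- lungs (Acta2) and 0 in WT lungs, and 0 fell. What part these cells have in the eotaxin and eosinophil values was not tested.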

How the data were processed

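Lung RNA of 12 mouse libraries was sequenced; the labels name both rRNA depletion and poly-A purification, directional libraries and a NextSeq500. The submitters' processing notes name mm10; for the aligner and the counter: not given in the sources used here. Used here as signal are the authors' deposited normalized gene counts. From the values, sorted columns are identical, each sums to 6852201, and 100% are multiples of 1/12 within 1e-06, which shows quantile normalization; a count test was therefore replaced by limma. The score columns are the authors' signed folds and the p-value columns their FDR-corrected p-values, per the file headers, which name an EDGE test and tagwise dispersions; the sign runs second group over first, checked against the group means, and is given here as the direction in words.

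Column codes were read as groups; their running numbers match no title. limma 3.58.1 (R 4.3.3) was fitted to log2(value + 1) of 19017 genes (1 group mean or more at 1 unit or above), with 1 mean per group over all 12 libraries (8 residual degrees of freedom, trend and robust options), two-sided, Benjamini-Hochberg adjusted over all genes tested, threshold 0.05. Fold changes on this scale understate changes of low genes. Genes with tied reads took consecutive values in table order, so whole reads were recovered where at least 10 genes tied, up to 209 to 262 reads per library; intervals on them cover counting error only. The code was tested on simulated data. The 22 alternatives changed pseudocount, filter, scaling, variance options, groups fitted and libraries left out; 1, leaving out libraries 1 and 7, was added after seeing the data. The 7 genes and all lists were chosen with earlier results of these data known. List genes are named where they passed the test, up to the 4 smallest adjusted p per list and comparison. Il5, Gata1, Ccl26, Il3, Il25, Prg3, Ear10 and Rnase2a are named in addition, with their values seen. Single cell type markers, such as Ly6g, Cpa3, Car4, Kit, Lyve1, Epcam and Foxj1, are also named with their values seen, whether or not they passed.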

Additional observations from a re-analysis of the deposited data

How the results depend on the processing

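Of the 10 counts of called genes, 9 stayed within 1.5 times their value in every alternative. Apart from the WT count higher with ovalbumin, these were counts of 0 that stayed at 0. For a count of 0 the ratio says nothing about stability. The count higher with ovalbumin in Has2+/- lungs, 3, was 1 without the trend and robust options and ranged between 1 and 3 when single libraries were left out (1 without library 7, 10, 11 or 12); in WT lungs it ranged between 2 and 4. The cause was not tested. Among changes with no call, signs turned as follows. Without libraries 3 and 12, the difference under ovalbumin was 0.10 for Ccl11, -0.27 for Ccr3 and -0.34 for Prg2. In the same fit, the difference under saline was -0.044 for Ccl11 and -0.062 for Il5ra. The interaction there was 0.15 for Ccl11, 0.46 for Ccl24, 0.17 for Il5ra and -0.078 for Prg2. Without libraries 1 and 7, Ccl11 was 0.10 under ovalbumin and the Il5ra interaction 0.19. At a pseudocount of 10, Ccl24 was 0.16 under saline. Leaving out single libraries, the difference under ovalbumin ran between -0.39 and 0.10 for Ccl11, -0.27 and 0.56 for Ccr3, -0.26 and 0.063 for Siglecf and -0.35 and 0.84 for Prg2. Under saline it ran between -0.044 and 0.29 for Ccl11, -1.61 and 0.67 for Ccl24 and -0.062 and 0.68 for Il5ra. The interaction ran between -1.60 and 0.68 for Ccl24 and -0.55 and 0.20 for Il5ra.

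With a filter on a mean of at least 10, Prg2 was not tested. Fits of the compared groups alone give no interaction. No paired analysis was possible because the columns carry no replicate number of the titles. Depth limits Epx, with 8 reads in all, and the saline levels of Prg2 and Ccr3.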
